A study of Mus musculus with 4 samples.

Results

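The genes described here are the mouse genes named Zfp followed by a number of 3 digits, most of which encode zinc finger proteins. They were all protein-coding genes on chromosomes 1 to 19 whose RefSeq symbol (GRCm38.p6, the assembly behind mm10) has that form. There were 311 such genes among 20661 protein-coding genes on these chromosomes, or 1.51%. A gene with another Zfp gene of this kind within 100 kb was called clustered, and the others isolated, which gave 169 clustered genes in 44 tandem clusters and 142 isolated genes. Genes closest to this limit were Zfp605 and Zfp932, 97762 bp apart and clustered, and Zfp936 and Zfp715, 104413 bp apart and isolated.

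Chromatin was assayed by ATAC-seq, in which the Tn5 transposase inserts adapters into open DNA, in haematopoietic stem cells (HSCs) of 8-week-old male C57BL/6 mice, wild type and taken from bone marrow. The 2 groups were CD93-positive HSCs and CD93-negative HSCs, with 2 libraries each. Both were sorted as LSK cells (lineage-negative, Sca-1-positive, Kit-positive) that lacked CD34, Flt3 and CD48 and carried Slam1. CD93 is a transmembrane receptor with a C-type lectin-like domain. Long bones were pooled before the sort. Separate mice are not stated for the 2 libraries of a group, and the spread between them may be technical. The title of the series names the comparison of these fractions as its purpose.

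Each library was available as a list of summits, the points of highest signal within accessible sites, each with a score read here as the −log10 of a p or q value. Read depth is unknown. The lists differed greatly in length. That of CD93-negative replicate 1 was the longest, with 7989 summits. Relative to it, CD93-positive replicate 2 had 8.90% as many summits, CD93-negative replicate 2 had 34.5% and CD93-positive replicate 1, with 21 summits, 0.263%. Scores are set against each library's own background and are not scaled between libraries. A gene was called listed in a library when a summit lay within 1000 bp of either end of the gene. Of 13 genes that mark HSCs, 2 (15.4%) were listed in CD93-negative replicate 1, against 33.3% of all protein-coding genes. These were Lyl1 and Tal1, transcription factors of the blood stem cell programme, and no other library listed any of the 13. Kit and Slamf1 were listed in none. No marker of endothelial cells (6 genes), B cells (5) or erythroid cells (3) was listed in any library. Cd3d, of 4 T-cell markers, was listed in CD93-negative replicate 1, S100a9 in the same library and S100a8 in both CD93-negative libraries, of 5 neutrophil markers. In CD93-negative replicate 1 this was 25% of the T-cell and 40% of the neutrophil markers. In CD93-negative replicate 2 it was 20% of the neutrophil markers, against 13.6% of all genes.

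Many mammalian zinc finger proteins of this kind bind DNA through arrays of C2H2 fingers, each finger folded around a zinc ion. A large group carries a KRAB domain, which recruits the corepressor TRIM28 and with it the histone methyltransferase SETDB1, and such proteins are known for silencing transposable elements through methylation of histone H3 on lysine 9. KRAB zinc finger genes multiplied by tandem duplication and stand in clusters of near relatives. Others, such as Zfp143, are activators without KRAB domains that stand alone in the genome.

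The 300-base promoter windows below (250 bases before to 50 after an annotated start, RefSeq, GRCm38.p6, 5′ to 3′ along the gene) show the tandem cluster with the most genes listed in CD93-positive HSCs, on chromosome 8, in chromosome order, followed by Zfp367, the highest-scoring Zfp gene of CD93-positive replicate 2, and Zfp143, the second highest of both CD93-negative libraries. For genes with several starts the start nearest to the summit of CD93-negative replicate 1 was taken. Capitals mark CCAATCA, a form of the NFY box, and GGGCGG, the GC box bound by SP and KLF factors, on either strand.
Zfp868 (chr8:69625499-69625798, minus strand): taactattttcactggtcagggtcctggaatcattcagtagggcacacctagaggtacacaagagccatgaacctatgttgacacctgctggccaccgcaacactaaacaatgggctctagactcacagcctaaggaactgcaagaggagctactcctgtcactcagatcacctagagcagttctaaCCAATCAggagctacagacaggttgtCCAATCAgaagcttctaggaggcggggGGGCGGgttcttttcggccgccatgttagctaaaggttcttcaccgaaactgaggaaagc
Zfp964 (chr8:69654306-69654605, plus strand): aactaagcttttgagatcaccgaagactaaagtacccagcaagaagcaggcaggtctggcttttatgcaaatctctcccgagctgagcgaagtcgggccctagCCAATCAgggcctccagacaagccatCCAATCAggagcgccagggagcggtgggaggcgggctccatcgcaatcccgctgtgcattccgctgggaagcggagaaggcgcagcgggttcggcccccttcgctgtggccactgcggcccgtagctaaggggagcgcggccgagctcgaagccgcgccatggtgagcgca
Zfp869 (chr8:69716853-69717152, minus strand): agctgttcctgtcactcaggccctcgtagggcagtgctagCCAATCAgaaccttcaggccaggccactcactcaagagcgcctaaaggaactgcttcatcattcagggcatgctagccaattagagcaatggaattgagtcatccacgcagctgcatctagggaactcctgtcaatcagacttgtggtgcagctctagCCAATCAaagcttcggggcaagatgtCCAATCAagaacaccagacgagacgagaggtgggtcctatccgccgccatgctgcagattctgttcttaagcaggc
Zfp963 (chr8:69749913-69750212, minus strand): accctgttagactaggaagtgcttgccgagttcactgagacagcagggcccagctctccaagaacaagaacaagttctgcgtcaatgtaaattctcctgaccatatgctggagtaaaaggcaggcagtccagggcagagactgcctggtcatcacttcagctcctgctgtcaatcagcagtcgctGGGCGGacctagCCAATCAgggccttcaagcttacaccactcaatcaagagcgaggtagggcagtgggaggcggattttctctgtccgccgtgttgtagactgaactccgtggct
Zfp866 (chr8:69774862-69775161, minus strand): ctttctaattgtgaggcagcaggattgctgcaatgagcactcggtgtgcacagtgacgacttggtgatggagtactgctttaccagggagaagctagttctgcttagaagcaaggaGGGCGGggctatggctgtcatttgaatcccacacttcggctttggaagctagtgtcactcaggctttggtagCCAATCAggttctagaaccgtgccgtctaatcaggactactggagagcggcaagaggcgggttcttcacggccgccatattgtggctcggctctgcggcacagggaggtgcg
Zfp367 (chr13:64153150-64153449, minus strand): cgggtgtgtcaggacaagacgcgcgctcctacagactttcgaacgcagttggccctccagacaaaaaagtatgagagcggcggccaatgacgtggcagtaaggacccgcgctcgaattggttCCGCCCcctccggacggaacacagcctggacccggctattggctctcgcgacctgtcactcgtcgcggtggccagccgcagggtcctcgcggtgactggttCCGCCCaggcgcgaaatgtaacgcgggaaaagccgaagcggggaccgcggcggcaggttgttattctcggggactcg
Zfp143 (chr7:110061452-110061751, plus strand): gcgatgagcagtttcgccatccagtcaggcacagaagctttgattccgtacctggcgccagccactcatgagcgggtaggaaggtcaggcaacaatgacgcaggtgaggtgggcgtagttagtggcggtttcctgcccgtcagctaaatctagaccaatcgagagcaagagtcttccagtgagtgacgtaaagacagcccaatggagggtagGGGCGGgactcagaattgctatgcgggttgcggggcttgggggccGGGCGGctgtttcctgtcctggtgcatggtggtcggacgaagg

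Few Zfp genes were listed in CD93-positive HSCs. CD93-positive replicate 1 listed 0 and CD93-positive replicate 2 listed 7 of the 311 genes, against 118 in CD93-negative replicate 1 and 37 in CD93-negative replicate 2. The shares of all protein-coding genes listed were 0.0194% and 3.39% in the CD93-positive libraries, against 33.3% and 13.6% in the CD93-negative ones. The means were 3.5 ± 4.95 genes in CD93-positive and 77.5 ± 57.3 genes in CD93-negative HSCs (SD, n = 2 each), a difference of -74 genes. Without CD93-negative replicate 1 the difference was -33.5 genes, and without CD93-negative replicate 2 it was -114.5. The groups did not overlap, but an exact permutation test over libraries gave p = 0.333 (two-sided), and no smaller p is possible with this number of libraries. List length moved with this count. When each CD93-negative list was shortened, from its highest score down, to the length of the CD93-positive replicate 2 list (the matched length below), CD93-positive replicate 2 listed 7 Zfp genes, against 7 in CD93-negative replicate 1 and 5 in CD93-negative replicate 2. At this length CD93-positive replicate 2 listed 3.39% of all protein-coding genes, against 3.47% for CD93-negative replicate 1 and 3.57% for CD93-negative replicate 2. At matched length a lower number was not seen in CD93-positive replicate 2, the only CD93-positive library long enough to enter. Lists of equal length reach nearly equal shares of all genes. This comparison could thus show a lower number of Zfp genes only relative to other genes.

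**Figure D1:**
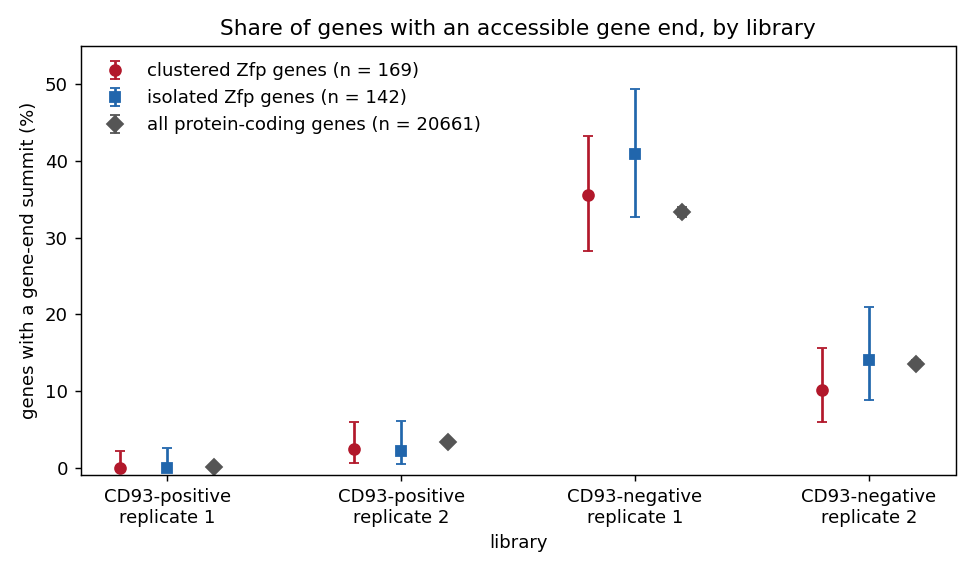
The y axis gives the percentage of genes with a summit within 1000 bp of a gene end, for clustered Zfp genes, isolated Zfp genes and all protein-coding genes in each of the 4 libraries. Bars are exact 95% binomial intervals over genes, and in every library the intervals of clustered and isolated Zfp genes overlap.

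The share of Zfp genes listed, set beside that of all protein-coding genes, depended on the length of list taken. In the whole list of CD93-positive replicate 2 it was 2.25% (exact Clopper-Pearson 95% interval 0.910 to 4.58), against 3.39% of all genes. For CD93-negative replicate 1 it was 37.9% (32.5 to 43.6), against 33.3% of all genes. For CD93-negative replicate 2 it was 11.9% (8.52 to 16.0), against 13.6% of all genes. In CD93-positive replicate 1 no Zfp gene was listed, against 0.0194% of all genes. The intervals cover counting error over genes only, and no test of the Zfp genes as a set was made. The difference of 4.62 percentage points in CD93-negative replicate 1 became -1.21 points at matched length, when 2.25% of Zfp genes and 3.47% of all genes were listed. With as many of its highest-scoring summits as CD93-negative replicate 2 has, a length chosen here after seeing the data, the same library listed 8.68% of Zfp genes (5.80 to 12.4). The share of all genes was 13.5%, a difference of -4.86 points. With summits scoring at least 10 the difference was 0.27 points.

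Among listed genes, the median score of the Zfp genes lay below that of all listed genes in every library that listed any Zfp gene. These differences were not tested. The median score of the Zfp genes listed in CD93-negative replicate 1 was 17.5, against 24.2 for all listed genes, and 31.4% of the listed Zfp genes lay above the median of all listed genes. Of these Zfp genes, 12.7% lay among the 25% of listed genes with the highest scores and 35.6% among the 25% with the lowest. For CD93-negative replicate 2 the medians were 9.23 for Zfp genes and 10.2 for all genes, with 13.5% of Zfp genes among the highest 25% and 29.7% among the lowest. There, 37.8% of the listed Zfp genes lay above the median of all listed genes. In CD93-positive replicate 2 the medians were 7.62 for the 7 Zfp genes and 7.96 for all listed genes, and 28.6% of these Zfp genes (2 of 7) lay above the latter. The Zfp genes made up 1.54% of the genes listed by the 100 highest-scoring summits of CD93-positive replicate 2 (1 gene) and 1% of those of its whole list. At matched length they made up 0.978% of the genes listed in CD93-negative replicate 1, and with all its 7989 summits 1.71%. The same shares in CD93-negative replicate 2 were 0.678% at matched length and 1.32% with its whole list.

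**Figure D2:**
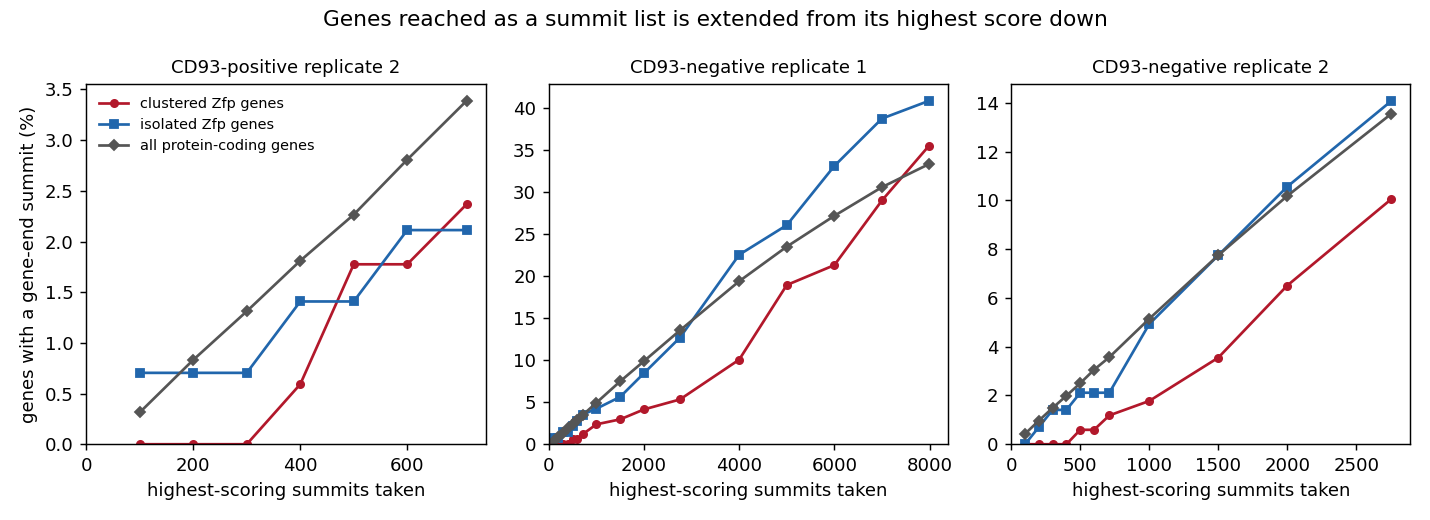
Each panel takes 1 library and extends its list from the highest score down (x axis, number of summits; the axes differ between panels), and the y axis gives the percentage of genes listed. The clustered Zfp genes of CD93-negative replicate 1 lie below all protein-coding genes up to 7000 summits (29.0% against 30.6%) and above them with the whole list (35.5% against 33.3%).

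The 7 Zfp genes of CD93-positive replicate 2 were all listed in both CD93-negative libraries. So were most genes of that list. Of its 700 protein-coding genes, 697 were listed in CD93-negative replicate 1 and 607 in CD93-negative replicate 2. Zfp367 (chromosome 13, 64133022 to 64153199), isolated, scored 15.9 in CD93-positive replicate 2, 62.5 in CD93-negative replicate 1 and 12.2 in CD93-negative replicate 2. It had the highest score among the Zfp genes of CD93-positive replicate 2 and the third highest in CD93-negative replicate 1. Its promoter window shown above holds 36 CpG dinucleotides and a pair of GC boxes on the strand opposite to the gene, and the summit of CD93-negative replicate 1 lay inside it, at position -201 from the start. Zfp319 (chromosome 8, 95326131 to 95331811) scored 7.76 in CD93-positive replicate 2, 33.9 in CD93-negative replicate 1 and 8.95 in CD93-negative replicate 2. Zfp653 (chromosome 9, 22055411 to 22071395) scored 5.74 in CD93-positive replicate 2, 22.1 in CD93-negative replicate 1 and 8.99 in CD93-negative replicate 2. Both are isolated, and both share their summit in CD93-negative replicate 1 with a neighbour of another family, Zfp319 with Usb1, which encodes an exonuclease that trims U6 RNA, and Zfp653 with Ecsit, which encodes an assembly factor of respiratory complex I. Zfp619 (chromosome 7, 39517766 to 39540415), in a pair with Zfp939, scored 7.61 in CD93-positive replicate 2, 38.3 in CD93-negative replicate 1 and 7.62 in CD93-negative replicate 2. The other three lie in a single cluster on chromosome 8. At these 7 genes the summit of CD93-positive replicate 2 lay a median of 90 bp, and at most 160 bp, from that of CD93-negative replicate 1, and at most 300 bp from that of CD93-negative replicate 2.

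**Figure D3:**
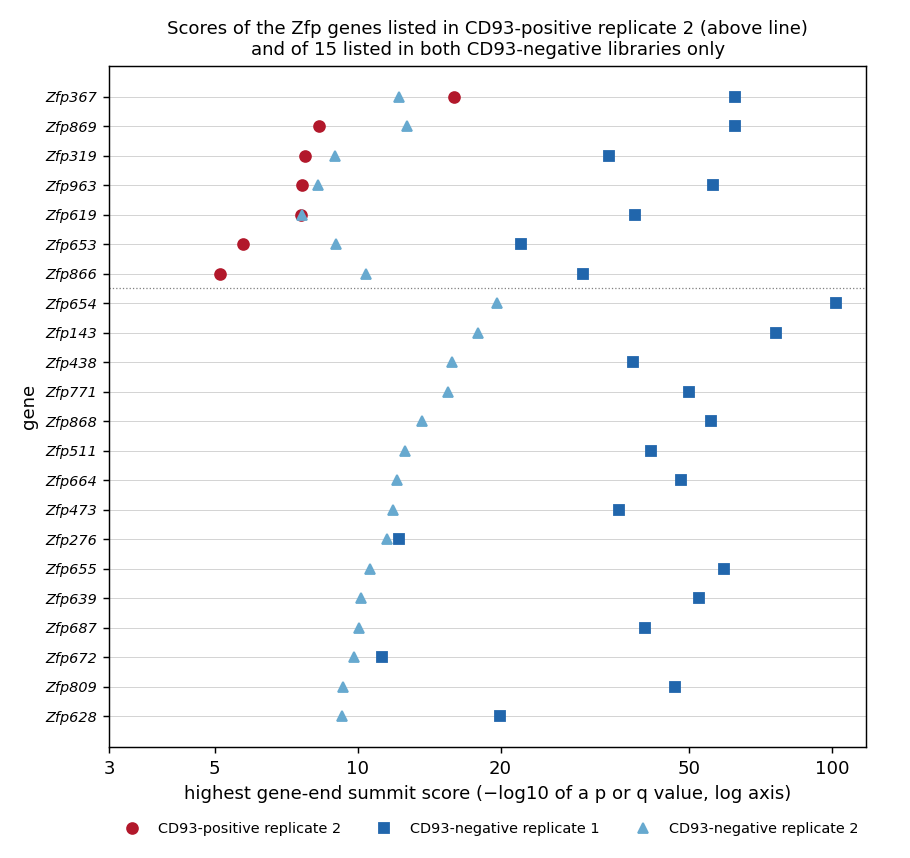
The x axis, on a log scale, gives the score of the highest gene-end summit of each gene, for the 7 Zfp genes listed in CD93-positive replicate 2 (above the dotted line) and the 15 with the highest lower score among those listed in both CD93-negative libraries only. Scores are not scaled between libraries. A gene without a red circle was not listed in CD93-positive replicate 2, as for Zfp654 at 101.6 in CD93-negative replicate 1 and 19.6 in CD93-negative replicate 2.

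The chromosome 8 cluster held 5 Zfp genes between 69610654 and 69774911, and 4 of them were listed. Zfp869 (69705137 to 69717068) scored 8.30 in CD93-positive replicate 2, 62.3 in CD93-negative replicate 1 and 12.7 in CD93-negative replicate 2. Zfp963 (69741639 to 69749962) scored 7.62 in CD93-positive replicate 2, 56.1 in CD93-negative replicate 1 and 8.24 in CD93-negative replicate 2. Zfp866 (69761324 to 69774911) scored 5.13 in CD93-positive replicate 2, 29.8 in CD93-negative replicate 1 and 10.4 in CD93-negative replicate 2. Zfp868 (69610654 to 69625557) was not listed in CD93-positive HSCs and scored 55.6 in CD93-negative replicate 1 and 13.7 in CD93-negative replicate 2. Zfp964 (69654463 to 69667132), which lies between Zfp868 and Zfp869, was listed in no library. Every other cluster of 4 or more Zfp genes had 0 genes listed in CD93-positive replicate 2.

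The promoter windows of this cluster, shown above, have the NFY letters in common and differ in CpG content. All 5 held CCAATCA at least once, against 24.1% of the promoters of Zfp genes and 9.41% of the promoters of all protein-coding genes. So did all 3 promoters of the chromosome 2 cluster from Zfp972 to Zfp931, where no gene was listed in any library. Genes of a cluster arose by duplication, so their promoters are not independent. The listed genes of the chromosome 8 cluster had few CpG dinucleotides, 6 in Zfp868, 8 in Zfp869, 9 in Zfp963 and 13 in Zfp866, while the unlisted Zfp964 had 24. After global alignment, the windows of Zfp868 and Zfp869 shared 186 of 300 bases, and the window of Zfp964 shared 155 to 168 bases with those of the other four. Unrelated windows gave similar values, such as 153 bases for Zfp367 and Zfp143. The summits of CD93-negative replicate 1 lay inside the printed window at Zfp869, at position -96 from the start, and at Zfp866, 35 bases after the start, and lay past its end at Zfp868 and Zfp963.

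Among Zfp genes not listed in CD93-positive HSCs, 30 were listed in both CD93-negative libraries. This pattern was found in 9.65% of all Zfp genes, against 10.4% of all protein-coding genes. Zfp654 (chromosome 16, 64780347 to 64851937) had the highest score of all Zfp genes in CD93-negative replicate 1, 101.6, and in CD93-negative replicate 2, 19.6. Its summit lay within 1000 bp of Cggbp1, which encodes a protein that binds CGG repeats, so it cannot be given to either gene. Zfp143 (chromosome 7, 110061689 to 110095396), the mouse form of the activator ZNF143, scored 76.3 in CD93-negative replicate 1 and 17.9 in CD93-negative replicate 2, with a summit at position -143 from the start in CD93-negative replicate 1, inside the window shown above. Zfp809 (chromosome 9, 22225667 to 22254117), a KRAB protein that silences murine leukaemia virus in mouse embryonic cells, scored 46.5 and 9.33 in the same libraries. Zfp473 (chromosome 7, 44731480 to 44748617), whose human counterpart acts in the 3′ processing of histone messenger RNA, scored 35.6 and 11.9 there and shared its summit with Vrk3. Zfp622 (chromosome 15, 25984366 to 25998482), a factor of large ribosomal subunit maturation, scored 25.6 and 9.23. This last gene was chosen after its values were seen.

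The other high-scoring genes of this class had scores in CD93-negative replicate 1 that spanned a wide range for similar scores in CD93-negative replicate 2. Zfp655 scored 59.1 and 10.6, Zfp639 52.3 and 10.2, and Zfp276, which shared its summit with Vps9d1, 12.2 and 11.5 in CD93-negative replicates 1 and 2. Zfp438, Zfp771, Zfp511, Zfp664, Zfp687, Zfp672 and Zfp628 lay between 11.3 and 49.95 in CD93-negative replicate 1 and between 9.29 and 15.8 in CD93-negative replicate 2. Among them Zfp511, Zfp664 and Zfp672 shared their summits with Tubgcp2, Ccdc92 and Sh3bp5l, in that order. At the 37 Zfp genes listed in both CD93-negative libraries the summits lay a median of 41 bp apart, and 35 of them lay within 250 bp of each other.

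A further 81 Zfp genes, 26.0% of all 311 against 19.5% of all protein-coding genes, were listed in CD93-negative replicate 1 alone, and 0 were listed in CD93-negative replicate 2 alone. The 5 with the highest scores were Zfp706 (57.5), a small zinc finger protein, Zfp865 (40.3), Zfp513 (37.2), whose summit was shared with Ppm1g, Zfp213 (35.1) and Zfp961 (31.2). Of the 118 Zfp genes of CD93-negative replicate 1, CD93-positive replicate 2 listed 5.93%, against 10.1% of all genes listed there. CD93-negative replicate 2 listed 31.4% of them, against 40.1% of all genes. The remaining 193 Zfp genes, 62.1% against 66.5% of all genes, were listed in no library. Among these were Zfp521 and Zfp423, related proteins that bind the B-cell factor EBF1, and Zfp445, a KRAB protein that maintains genomic imprints. These 3 were chosen after their values were seen.

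Some of the unlisted genes held a summit inside the gene, away from both ends. This was so in CD93-negative replicate 1 for 17 of 193 Zfp genes without a gene-end summit, or 8.81% against 6.97% of all such genes, among them Zfp335 and Zfp217. The count in CD93-negative replicate 2 was 8 of 274, or 2.92% against 1.93%. In CD93-positive replicate 2 it was 2 of 304 genes, Zfp672 and Zfp708, or 0.658% against 0.406%.

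Where the start of the gene was known, most summits of listed Zfp genes lay within 1000 bp of it. Summits were taken only near gene ends, so this is partly built in, and the share over all listed genes was not computed. In CD93-positive replicate 2 all 7 listed Zfp genes had their summit within 1000 bp of an annotated start, in CD93-negative replicate 1 this was so for 97 of 103 and in CD93-negative replicate 2 for 30 of 33. The median distance from the nearest start was 225 bp, 70 bp and 159 bp in the 3 libraries. The 6 genes of CD93-negative replicate 1 with summits farther from a start were Zfp786, Zfp638, Zfp580, Zfp526, Zfp771 and Zfp597. A summit that also lay within 1000 bp of the end of a gene outside the family was found for 2 of 7 listed Zfp genes in CD93-positive replicate 2, against 20 of 118 in CD93-negative replicate 1 and 10 of 37 in CD93-negative replicate 2. For Zfp771 (score 49.95) the summit lay 9673 bp past the nearest listed start, near the other end of the gene.

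Clustered and isolated Zfp genes differed by no more than counting error in the share listed by whole lists. In the CD93-negative libraries the difference was larger than that at some cutoffs, such as summits scoring at least 10, but not at matched length. The difference at that score was within counting error among genes without a close neighbour outside the family. In the whole list of CD93-negative replicate 1 the shares were 35.5% of clustered genes (60 of 169) and 40.8% of isolated genes (58 of 142), a difference of -5.34 percentage points (Newcombe 95% interval -16.0 to 5.41). In CD93-negative replicate 2 they were 10.1% (17 of 169) and 14.1% (20 of 142), a difference of -4.03 points (-11.6 to 3.23). In CD93-positive replicate 2 they were 2.37% (4 of 169) and 2.11% (3 of 142), a difference of 0.25 points (-3.92 to 4.08). The differences averaged 0.127 ± 0.180 points in CD93-positive and -4.68 ± 0.931 points in CD93-negative HSCs (SD, n = 2 each), with an exact permutation p = 0.333 (two-sided), which cannot go lower here, and a value of 0 in CD93-positive replicate 1 because no Zfp gene was listed there. Median scores of listed genes were 16.0 for clustered and 21.2 for isolated genes in CD93-negative replicate 1, and 8.24 and 10.1 in CD93-negative replicate 2.

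Among higher scores the share of clustered genes was lower. With summits scoring at least 10, CD93-negative replicate 1 listed 23.7% of clustered genes (40 of 169) and 35.9% of isolated genes (51 of 142), beside 29.0% of all protein-coding genes, a difference of -12.2 points (-22.3 to -2.08). CD93-negative replicate 2 listed 2.37% (4 of 169) and 7.75% (11 of 142), beside 6.85% of all genes, a difference of -5.38 points (-11.2 to -0.480). With as many summits as CD93-negative replicate 2 has, CD93-negative replicate 1 listed 5.33% (9 of 169) and 12.7% (18 of 142), a difference of -7.35 points (-14.3 to -0.994). For this comparison that length was chosen after seeing the data. At matched length the difference was -2.34 points (-6.88 to 1.30) in CD93-negative replicate 1 and -0.93 points (-4.94 to 2.40) in CD93-negative replicate 2. These intervals treat genes as independent, although genes of a cluster are near relatives.

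The gap between clustered and isolated genes moved with the neighbours of other families. Of the 169 clustered Zfp genes, 10 had an end within 1000 bp of the end of a gene outside the family, against 24 of the 142 isolated genes. Zfp genes with such a neighbour were listed at 70.6% (24 of 34) in CD93-negative replicate 1 and 38.2% (13 of 34) in CD93-negative replicate 2. Zfp genes without one were listed at 33.9% (94 of 277) and 8.66% (24 of 277). Among genes outside the family, those with an end near another gene end were listed at 56.7% and 25.7% in the same libraries, and those without at 25.1% and 9.36%. Among Zfp genes without such a neighbour, the shares of CD93-negative replicate 1 were 34.0% of clustered genes (54 of 159) and 33.9% of isolated genes (40 of 118). Those of CD93-negative replicate 2 were 8.81% (14 of 159) and 8.47% (10 of 118). Comparing clustered with isolated genes among those without such a neighbour was chosen after seeing the data. With summits scoring at least 10, the difference among genes without such a neighbour was -6.39 points (-17.0 to 3.97) in CD93-negative replicate 1 and -2.57 points (-8.34 to 2.09) in CD93-negative replicate 2. The CD93-positive minus CD93-negative value of the clustered minus isolated difference was 4.81 points with whole lists. It was -2.46 points when summits near genes outside the family were left out and all Zfp genes kept in the shares. That setting can only lower a share, and more isolated than clustered genes have such a neighbour, so the shift is partly built in.

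Clusters differed widely from each other. Of the 44 clusters, 18 had no gene listed in CD93-negative replicate 1 and 2 had every gene listed, namely the pair of Zfp668 and Zfp646 on chromosome 7 and the group of Zfp263, Zfp174 and Zfp597 on chromosome 16. The cluster of 9 genes on chromosome 4 from Zfp978 to Zfp933 (147124882 to 147849126) had 0 listed genes in any library. The largest cluster, 12 genes on chromosome 13 from Zfp712 to Zfp748 (67038594 to 67553152), had 2 listed genes, Zfp712 (score 9.36) and Zfp748 (17.4), in CD93-negative replicate 1 alone. The cluster of 9 genes on chromosome 7 from Zfp790 to Zfp146 (29811437 to 30169775) had 4, all in CD93-negative replicate 1 alone. These were Zfp566 (22.2), Zfp146 (11.4), Zfp568 (8.59), a KRAB repressor of a placental Igf2 transcript in mouse embryos, and Zfp382 (7.08).

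By contrast the cluster on chromosome 6 from Zfp786 to Zfp746 (47815536 to 48086986) had 6 of 7 genes listed in CD93-negative replicate 1. The highest was Zfp746 (28.6), a KRAB repressor and target of the ubiquitin ligase parkin. The same cluster had Zfp282 (3.99) alone in CD93-negative replicate 2. The cluster on chromosome 7 from Zfp628 to Zfp580 (4915181 to 5053723) had 5 of 6 genes listed in CD93-negative replicate 1 and 3 in CD93-negative replicate 2. Some clustered genes stand head to head and were listed by the same summit. Such pairs in CD93-negative replicate 1 were Zfp786 with Zfp398 (17.9), Zfp784 with Zfp580 (16.0), Zfp942 with Zfp943 (23.9) and Zfp944 with Zfp758 (16.2). The 118 listed Zfp genes of this library thus rested on 114 distinct summits, and the 37 of CD93-negative replicate 2 on 35.

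**Figure D4:**
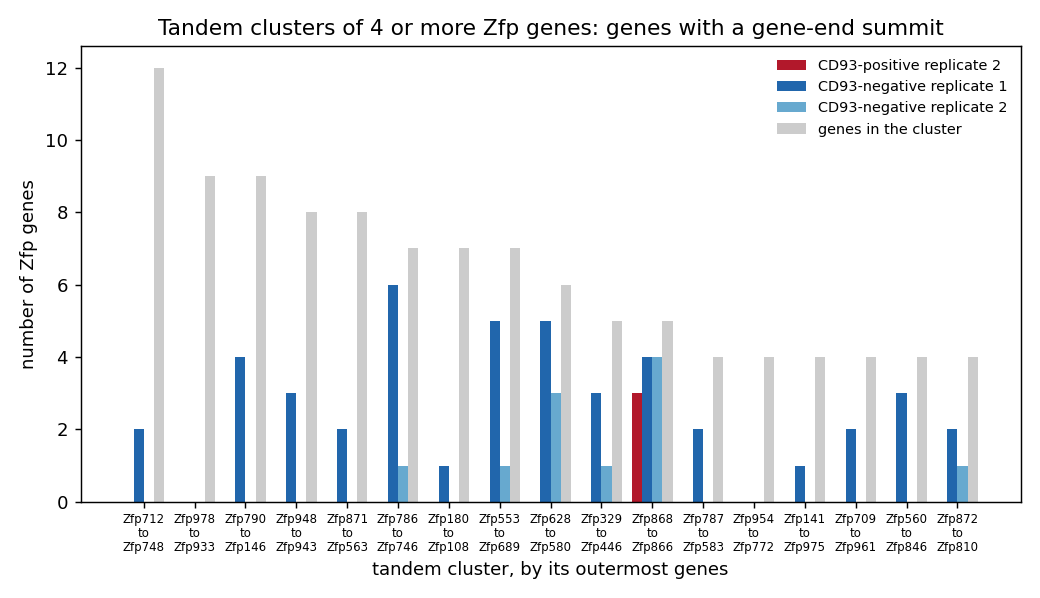
Bars give, for each of the 17 tandem clusters of 4 or more Zfp genes, how many genes were listed in the 3 longer libraries, beside the number of genes in the cluster (grey). The cluster from Zfp868 to Zfp866 is the single one with red bars, and the cluster from Zfp978 to Zfp933 has 9 genes and no coloured bar.

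Promoter sequence was available for 261 of the 311 Zfp genes and 16456 of the 20661 protein-coding genes, taking the first start listed for each gene. The median number of CpG dinucleotides in this window was higher in listed than in unlisted Zfp genes, which was not tested. For CD93-negative replicate 1 the median was 19 CpG in 103 listed Zfp genes, against 10 in 158 unlisted ones, and the same medians over all protein-coding genes were 24 and 6. Of Zfp genes with 20 or more CpG, 66.2% were listed (49 of 74), against 61.8% of all genes. With 10 to 19 CpG the shares were 40.2% of Zfp genes (39 of 97) and 41.8% of all genes, and with 5 to 9 CpG they were 22.7% (15 of 66) and 11.8%. With 0 to 4 CpG 0 of 24 Zfp genes and 3.30% of all genes were listed. Clustered Zfp genes had a median of 11 CpG and isolated ones 17.

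**Figure D5:**
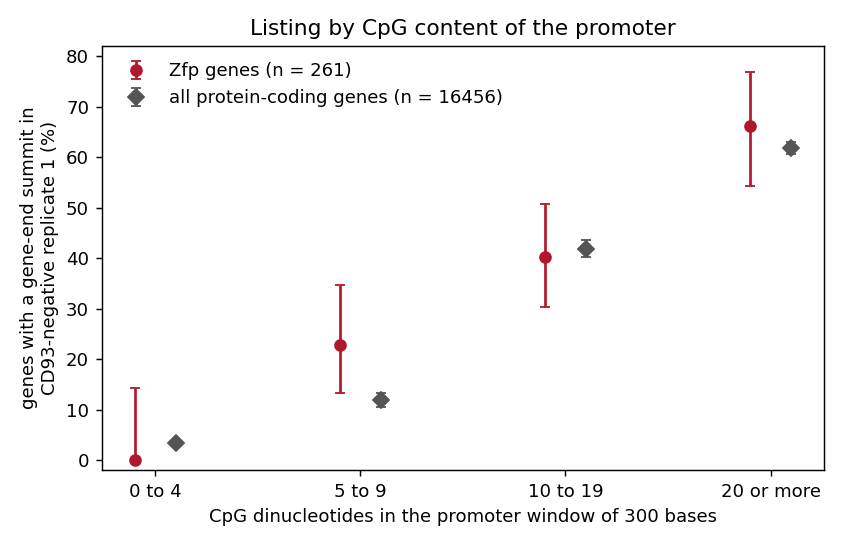
The x axis groups genes by the number of CpG dinucleotides in the promoter window of 300 bases, and the y axis gives the percentage listed in CD93-negative replicate 1, for Zfp genes and all protein-coding genes, with exact 95% binomial intervals over genes. The Zfp genes run from 0% with 0 to 4 CpG to 66.2% with 20 or more.

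Another sequence was common in the clustered genes. It reads ACTACA, then 2 bases of any kind, then TCC, or on the other strand GGA, 2 bases of any kind and TGTAGT, and these letters belong to the element bound by ZNF143. They were found in 22.0% of the promoters of clustered Zfp genes (33 of 150), 3.60% of those of isolated Zfp genes (4 of 111) and 3.09% of those of all protein-coding genes. The matches of clustered genes fell in 12 clusters, with 10 of 12 promoters in the chromosome 13 cluster from Zfp712, 7 of 8 in the chromosome 7 cluster from Zfp790 and 5 of 6 in the chromosome 7 cluster from Zfp180. Promoters within a cluster share ancestry by duplication, so they are not independent of each other. The 37 promoters held 41 matches, of which 40 lay before the start, at a median position of -63 over all 41. Where a promoter held several, the first is shown. The sites below, 30 bases each on the strand of the gene (RefSeq, GRCm38.p6), show the match in capitals for listed genes of CD93-negative replicate 1 (Zfp712, Zfp748 and Zfp566) and unlisted relatives of the same clusters (Zfp759, Zfp595 and Zfp940).
Zfp712 (chr13:67061205-67061234, minus strand): agaattgtgGGAAATGTAGTctcgtccgcg
Zfp748 (chr13:67553157-67553186, minus strand): agacttgtgGGAAGTGTAGTcttccgttgg
Zfp759 (chr13:67128168-67128197, plus strand): tgatttgtgGGAAATGTAGTcccggcccct
Zfp595 (chr13:67332590-67332619, minus strand): tgacttgtgGGAAATGTAGTccctaccacg
Zfp566 (chr7:30090566-30090595, minus strand): ctcggactgACTACATTTCCcagagggctc
Zfp940 (chr7:29853664-29853693, minus strand): ggactcctgGGAAATGTAGTtcaagacttg

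The match was present in 10.7% of Zfp promoters listed in CD93-negative replicate 1 (11 of 103) and in 16.5% of unlisted ones (26 of 158), while over all protein-coding genes it was present in 5.36% of listed and 1.90% of unlisted promoters. The NFY letters CCAATCA were present in 25.2% of listed and 23.4% of unlisted Zfp promoters, against 13.8% and 7.11% over all protein-coding genes. The ETS letters CCGGAAGT were present in 8.74% of listed and 9.49% of unlisted Zfp promoters, against 10.5% and 2.80% over all genes. The GC box GGGCGG was present in 57.3% of listed and 38.0% of unlisted Zfp promoters, against 71.7% and 34.4% over all genes. Letters of these motifs can overlap each other. A match describes the sequence alone, and these shares were not tested.

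Near-identical promoters limit what short reads can place. In 21 of 261 Zfp promoters over 50% of the 36-base words also occurred at another position among the RefSeq promoter windows, among them those of Zfp965 to Zfp968 on chromosome 2. Of these 21 genes, 4 were listed in CD93-negative replicate 1, or 19.05%, against 41.3% of the other 240. The 4 were the head-to-head pairs Zfp942 with Zfp943 and Zfp944 with Zfp758 on chromosome 17, each pair listed by the same summit. They were among 14 clustered genes of the 21, and 0 of the 7 isolated ones were listed. The same shares over all protein-coding genes were not computed. CD93-negative replicate 2 listed 0 of the 21, against 13.8% of the other 240. How reads with several matches were treated is not given in the sources used here, and its part in the unlisted genes was not tested.

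Genes of the partners of KRAB proteins had larger shares listed than the Zfp genes themselves, a difference that was not tested. Of 38 genes of corepressor, heterochromatin and DNA methylation factors on chromosomes 1 to 19, 3 were listed in CD93-positive replicate 2 (7.89%, against 3.39% of all genes), 28 in CD93-negative replicate 1 (73.7%, against 33.3%) and 14 in CD93-negative replicate 2 (36.8%, against 13.6%). The 38 included Zfp57, itself a zinc finger gene, and Dppa3, and no library listed either. Trim28, the scaffold that KRAB domains bind, scored 20.4 in CD93-negative replicate 1 and 6.03 in CD93-negative replicate 2, and Setdb1, the histone methyltransferase it recruits, scored 11.9 in CD93-negative replicate 1. Trim28 shared its summit with the end of Gm31649. The heterochromatin protein gene Cbx3 scored 90.3 and 10.5, and Cbx5 27.5 and 15.9, with summits shared with Hnrnpa2b1 and Hnrnpa1. The 3 genes listed in CD93-positive replicate 2 were Rbbp4 (14.5), Gatad2a (6.87) and Mbd3 (5.10), subunits of the NuRD deacetylase complex, and the summit of Rbbp4 was shared with Zbtb8os. Dnmt1, Dnmt3a and Dnmt3b, the DNA methyltransferases, were listed in no library.

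Other zinc finger families stood on both sides of the Zfp genes. In CD93-negative replicate 1, against 37.9% of the 311 Zfp genes, the shares were 34.7% of Zfp genes with 1 or 2 digits (17 of 49), 22.2% of Zscan and Zkscan genes (6 of 27), 62.5% of Zbtb genes (25 of 40) and 68.8% of Klf genes (11 of 16). In CD93-positive replicate 2, against 2.25%, they were 2.04% (1 of 49), 0% (0 of 27), 15% (6 of 40) and 31.3% (5 of 16). The Zbtb counts include Zbtb8os, which is counted through the summit it shares with Rbbp4. Without it they were 24 of 39 (61.5%) in CD93-negative replicate 1 and 5 of 39 (12.8%) in CD93-positive replicate 2. The differences between families were not tested.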

How the data were processed

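The submitters' processing notes name Bowtie2, mm10 and MACS2, and the labels give no roles, versions or settings for them. The sources used here do not give read filters, any Tn5 shift or the peak calling threshold. The authors deposited 1 summit list per library, and its last column was read as the −log10 of a p-value or q-value, since MACS2 fills the summit score in that way. It is not stated whether p or q was written. The score was used to rank or filter summits within a list.

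Groups came from the sample titles. Replicate numbers inside the deposited summit names differ from the titles, and the titles were followed. Gene positions and promoter windows came from RefSeq tables of GRCm38.p6. Each gene was given the highest-scoring summit within 1000 bp of either end. Shares carry exact Clopper-Pearson 95% intervals. Libraries were compared by two-sided exact permutation tests. Matched length took as many of the highest-scoring summits of each list as CD93-positive replicate 2 has. The functions were tested on simulated summits. Python 3.11.15, numpy 2.4.6, pandas 2.3.3, scipy 1.17.1 and matplotlib 3.10.9 were used.

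The Zfp genes, the lists and the rule for named genes were chosen with earlier results of these data known. The rule took all Zfp genes listed in a CD93-positive library, the 15 highest by lower score in both CD93-negative libraries only, the 5 highest in CD93-negative replicate 1 alone, the listed genes of the 3 largest clusters and the 3 highest of each library. A planned check of replicate pairing by correlated deviations was not possible with 2 summit lists a group.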

Additional observations from a re-analysis of the deposited data

How the results depend on the processing

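The difference in listed Zfp genes, -74, was 1 at matched length, where CD93-positive replicate 1 is too short to enter (exact permutation p = 1). It ranged from -114.5 to -33.5 when a library was left out, with -33.5 without CD93-negative replicate 1 and -114.5 without CD93-negative replicate 2. With a replicate block it is -74 by construction, since the mean of paired differences equals the difference of the means (exact sign-flip p = 0.5, the smallest that 2 pairs allow). The share of Zfp genes minus that of all genes in CD93-negative replicate 1 was 4.62 points with the whole list, -1.21 points at matched length, 0.27 points with scores of at least 10, and, in settings chosen after seeing the data, 2.07 points against a background without chemoreceptor genes and -4.86 points at the length of the CD93-negative replicate 2 list. The CD93-positive minus CD93-negative value of the clustered minus isolated difference was 4.81 points. With summits near genes outside the family left out, but all Zfp genes kept in the shares, it was -2.46 points. It was 1.89 points at matched length, 8.46 points with scores of at least 10, and 4.15 to 5.47 points without each library. Without Zfp genes near the end of a gene outside the family, a setting chosen after seeing the data, it was 0.64 points. With a replicate block it is 4.81 points by construction. The numbers of Zfp genes at matched length became 27 in CD93-negative replicate 1 and 37 in CD93-negative replicate 2 when both lists were taken at the length of the CD93-negative replicate 2 list, and 9 in CD93-negative replicate 2 with a window of 2500 bp. For these changes other than list length and window the cause was not tested. The result kept its direction, moved within its interval or, for numbers at matched length, stayed within a fixed ratio in 87 of 94 combinations of a result and a setting, some of the values above included. A change of sign within the interval was counted among the 87. So were the replicate block settings, which could not change their values. With summits near genes outside the family left out, but all Zfp genes kept in the shares, the clustered minus isolated difference changed sign. It went from -5.34 to 4.85 points in CD93-negative replicate 1 and from -4.03 to 1.72 points in CD93-negative replicate 2. This shift is partly built in, since more isolated than clustered genes have such a neighbour. With those Zfp genes themselves left out, a setting chosen after seeing the data, the differences were 0.06 and 0.33 points. Read depth is unknown, so an unlisted gene is not shown to be closed.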
